A study of Mus musculus with 8 samples.

Results

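Genes for bile acid, organic ion and nucleoside transporters were followed in cultured mouse fetal liver cells. Members were all genes with symbols of the solute carrier families Slc10, Slc13, Slc17, Slc22, Slc23, Slc28, Slc29 and Slc47, or of the organic anion family Slco, that were named by a probe set carrying a single symbol. There were 63 such genes of 18193 on the array, read by 106 of 34945 single-symbol probe sets. The rule used names only and no measured value. Of the 63 genes, 24 were bright enough to be tested and 39 lay under the filter on mean level, at a signal of about 16.7.

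The cells of both groups were Ink4a-Arf-null hepatoblasts, the bipotent fetal precursors of hepatocytes and bile duct cells, and so lacked the locus encoding the cell cycle inhibitors p16Ink4a and p19Arf. They were taken from liver at embryonic day 14.5, selected for Dlk on magnetic beads, plated on collagen type IV and, after 12 to 18 h, transduced with EGFP (control, 4 arrays) or with Bmi1, a Polycomb repressor (4 arrays). The medium held 50 ng/ml HGF and 20 ng/ml EGF, and the transduced cells were collected by flow cytometry on culture day 28. RNA equal to 10000 cells was amplified over 2 cycles before biotin labelling, and the sources used here do not name the promoter that drives either transgene. The series describes 4 independent experiments, and arrays of the same replicate number are called a pair here.

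Hepatocytes take bile acids and drugs from portal blood through sodium-coupled carriers of the Slc10 family and exchangers of the Slco family, convert or conjugate them, and export them into bile through ATP-driven pumps. Slc22, Slc47 and Slc17 carriers move organic cations and anions, including carnitine and urate, while Slc13 and Slc23 carriers bring in dicarboxylates, citrate and ascorbate. Nucleosides cross by concentrative Slc28 and equilibrative Slc29 carriers, and many uptake carriers come on late in hepatocyte maturation.

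The promoters of the 6 genes the results turn on are shown as the 200 bases before the RefSeq gene start (GRCm38.p6), read 5′ to 3′ on the gene's strand. They are the gene that was higher in the arrays labelled Bmi1, Slc29a4, the 4 that were lower in the paired model, and the liver uptake carrier Slco1b2. Capitals mark CG dinucleotides, except in Slco1b2, which has none and where they mark the sequence GTTAAT.
Slc29a4: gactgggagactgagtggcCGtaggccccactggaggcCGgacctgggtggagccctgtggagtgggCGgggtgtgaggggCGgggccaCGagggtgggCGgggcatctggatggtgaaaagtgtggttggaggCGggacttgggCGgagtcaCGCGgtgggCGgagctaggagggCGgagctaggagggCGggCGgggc
Slc10a1: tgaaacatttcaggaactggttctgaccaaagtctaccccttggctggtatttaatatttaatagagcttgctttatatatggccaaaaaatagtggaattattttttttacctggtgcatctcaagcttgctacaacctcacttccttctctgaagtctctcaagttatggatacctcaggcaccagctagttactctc
Slc10a6: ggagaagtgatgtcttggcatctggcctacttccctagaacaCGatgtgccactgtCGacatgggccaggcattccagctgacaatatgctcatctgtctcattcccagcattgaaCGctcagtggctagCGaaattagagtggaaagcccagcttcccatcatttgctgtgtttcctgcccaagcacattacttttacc
Slc13a3: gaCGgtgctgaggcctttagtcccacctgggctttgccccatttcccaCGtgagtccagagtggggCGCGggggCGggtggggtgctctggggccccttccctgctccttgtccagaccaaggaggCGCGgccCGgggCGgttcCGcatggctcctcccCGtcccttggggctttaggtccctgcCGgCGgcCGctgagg
Slc17a3: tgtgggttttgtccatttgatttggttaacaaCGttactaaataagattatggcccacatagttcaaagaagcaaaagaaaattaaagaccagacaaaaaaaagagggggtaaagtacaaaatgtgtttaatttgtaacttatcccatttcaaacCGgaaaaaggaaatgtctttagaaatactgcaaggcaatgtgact
Slco1b2: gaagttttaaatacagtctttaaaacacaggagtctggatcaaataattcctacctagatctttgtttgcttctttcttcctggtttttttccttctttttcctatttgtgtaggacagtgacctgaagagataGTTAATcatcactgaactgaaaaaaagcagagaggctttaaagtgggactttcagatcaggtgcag

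These windows lie at chr5:142701901-142702100 on the plus strand for Slc29a4, chr12:80968706-80968905 on the minus strand for Slc10a1 (the more upstream of 2 annotated starts) and chr5:103629404-103629603 on the minus strand for Slc10a6. Those of Slc13a3, Slc17a3 and Slco1b2 lie at chr2:165473198-165473397 (minus), chr13:23839234-23839433 (plus) and chr6:141629318-141629517 (plus). Slc29a4 and Slc13a3, which moved in opposite directions, both hold 14 CG dinucleotides, at a GC content of 72% and 71%. Slc10a1 and Slco1b2 hold 0, Slc17a3 holds 2 and Slc10a6 holds 4, at 39%, 36.5%, 33% and 50% GC. The 4 genes lower in the paired model therefore span shown windows with 0 to 14 CG dinucleotides. For Slc10a1 this depends on the start and the length taken. The 250 bases before the shown start hold 1 CG, and those before its other start hold 6, at 52% GC.

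RefSeq promoters were found for 54 of the 63 members (71 starts), and 5 sequences known from liver transcription factors were searched on both strands in the 250 bases before each start. The letters GTTAAT, a short form of the HNF1 site, occur at -66 in Slco1b2. They are in 6 of the 54 members in all (also Slc10a2, Slc22a6, Slc22a8, Slc22a29 and Slc23a3), and in 6.43% of all 32851 promoters. A member counts here if any of its starts has the letters, while shares of all promoters are per promoter, so the 2 are unlike units. CAAAGTCCA (an HNF4 site, 0.384% of all promoters), the inverted repeat known for FXR (0.0244%), TTGCGCAA (C/EBP, 0.164%) and TGACTCA (AP-1, 4.46%) were in 0 members. A match is a description of the letters only.

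On the arrays, values are probe set signals with a common trimmed mean on each array. Array medians still ranged from 11.2 to 20.5 and backgrounds from 4.09 to 9.97, so dim signals are less comparable across arrays. Signals are not comparable between genes. The signal for Bmi1 itself was lower in the arrays labelled Bmi1, at 518 ± 218 in control and 279 ± 60.01 in Bmi1 arrays (SD, n = 4 each), so directions below are those of the labels. The hepatocyte genes Alb, Afp and Ttr read 3004 or more on all 8 arrays, and Dlk1, the gene of the sorting antigen, read 543 to 2103 on control and 1572 to 3133 on Bmi1 arrays. A hybridisation control, BioC 3′, gave 198 to 274 on the arrays of replicates 1 and 2 but 97.0 to 119 on those of replicates 3 and 4, which are called the 2 replicate sets. Gapdh gave a 3′ to 5′ ratio of 3.10 on control 1 and of 1.65 to 1.96 on the others. In this bulk RNA, fewer cells of a type and less RNA per cell cannot be told apart.

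Between the groups, 1 transporter rose in the arrays labelled Bmi1 and 0 fell when the arrays were compared without pairing. Slc29a4, encoding the plasma membrane monoamine transporter of the equilibrative nucleoside family, was 2.24-fold higher. In the paired model, which adds the replicate number as a block, Slc29a4 rose again and 4 carriers fell: the sodium-coupled bile acid carrier gene Slc10a1, the sulfated steroid carrier gene Slc10a6, the dicarboxylate carrier gene Slc13a3 and the organic anion carrier gene Slc17a3. Their differences were between -1.12 and -2.09 on the log2 scale. The test was limma over all 10916 genes above the filter, with Benjamini-Hochberg adjustment and a threshold of 0.05, and a paired p is the adjusted p of the paired model. Over all genes, 0.165% passed without a block (0.11% higher and 0.055% lower) and 3.33% in the paired model (1.36% higher and 1.96% lower). At an unadjusted p under 0.05 were 8 of 24 members in either model, against 7.81% and 18% of all genes.

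**Figure D1:**
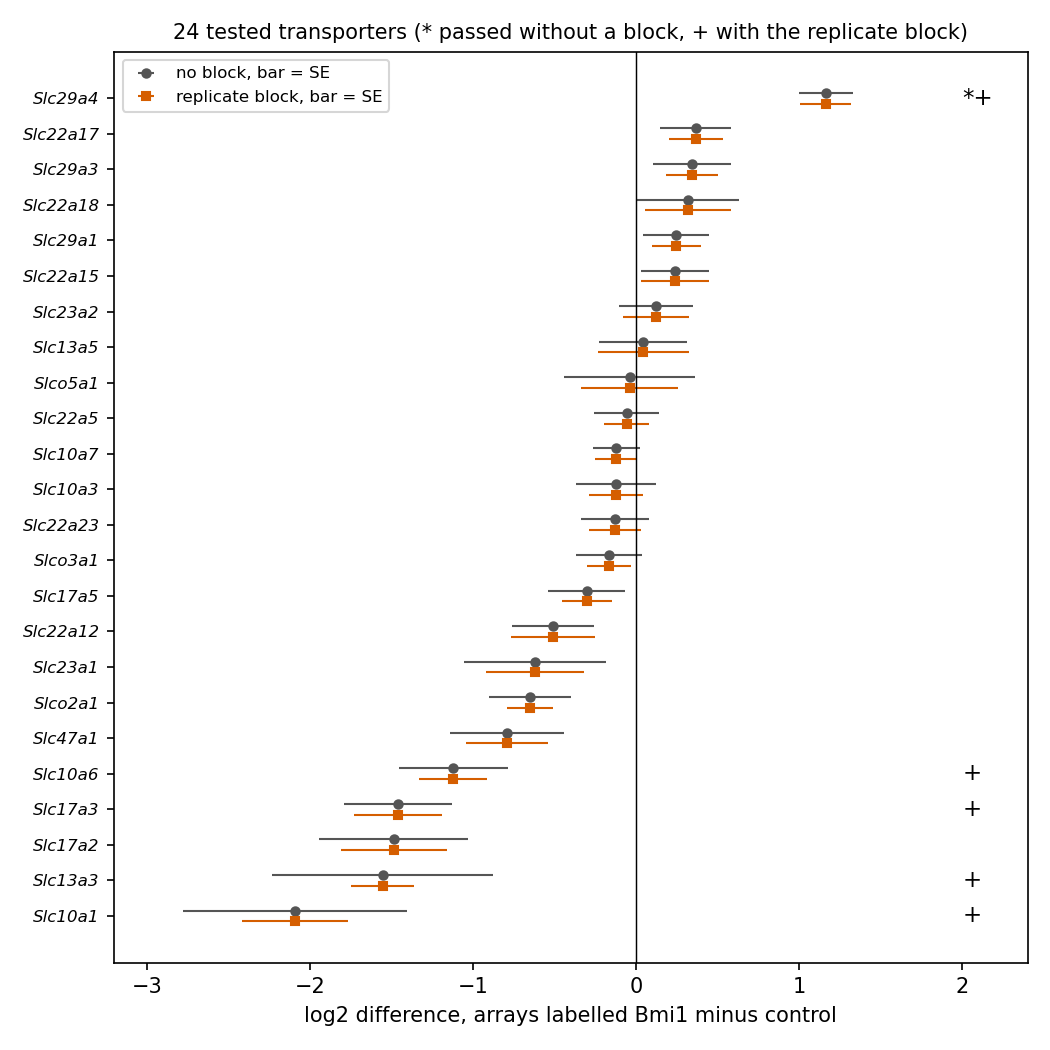
Log2 differences, arrays labelled Bmi1 minus control, of the 24 tested transporters on the x axis, with the standard error from limma without a block (circles) and with the replicate block (squares). Slc29a4 is at 1.16 and passed in both models, and 4 carriers between -1.12 and -2.09 passed with the block, where their bars are shorter.

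Slc29a4 (probe set 1441902_x_at) read 117, 135, 113 and 158 on control arrays 1 to 4. On Bmi1 arrays 1 to 4 it read 292, 297, 378 and 283. The groups did not overlap, and each Bmi1 array lay above every control array. The means were 131 ± 20.6 and 312 ± 44.1 (SD, n = 4 each), which is 1.16 apart on the log2 scale (SE 0.165). The limma adjusted p was 0.0406, and the paired p was 0.0133. It was higher in 4 of 4 pairs, by 1.2, 1.03, 1.62 and 0.79.

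The suffix _x_at marks a probe set that may cross-hybridise, and a second Slc29a4 probe set, 1424900_at, is without it. It read 9.57, 9.01, 25.8 and 19.6 on the control arrays and 42.0, 36.9, 76.7 and 37.7 on the Bmi1 arrays, a difference of 1.36. With each probe set tested alone, its limma adjusted p was 0.319, paired 0.0259. Here too no Bmi1 array was as low as any control array. Within replicates 1 and 2 the difference of the brighter probe set was 1.12, and within replicates 3 and 4 it was 1.21.

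The call of Slc29a4 without the block rests on 7 of the 8 arrays. Leaving out control 1, 2 or 3 gave a limma adjusted p of 0.0856, 0.118 or 0.140, and leaving out Bmi1 1, 2, 3 or 4 gave 0.107, 0.0750, 0.110 or 0.0880. Only without control 4 did it stay under the threshold, at 0.0475. In the paired model it passed without any 1 of the 4 replicates, at 0.0225 to 0.0458.

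The other equilibrative nucleoside carriers did not pass or lay under the filter. Slc29a1, the main adenosine and nucleoside carrier of the plasma membrane, read 173 ± 52.1 in control and 210 ± 22.6 in Bmi1 arrays (log2 difference 0.25, limma adjusted p = 0.929, paired 0.442). Slc29a3, which acts in lysosomes, read 71.2 ± 18.2 and 94.5 ± 10.4 (0.34, adjusted p = 0.890, paired 0.311). Slc29a2 lay under the filter, at 10.4 ± 7.20 and 21.8 ± 10.7, and was above background on 2 control and 4 Bmi1 arrays. The only concentrative nucleoside carrier read, Slc28a3, was also under the filter: it read 8.02, 17.1, 9.96 and 11.4 on control arrays and 9.91, 5.13, 0.465 and 10.1 on Bmi1 arrays, which overlap. All 3 tested Slc29 genes had differences above 0, but a test of whether Slc29a4 differed from the rest was not made.

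**Figure D2:**
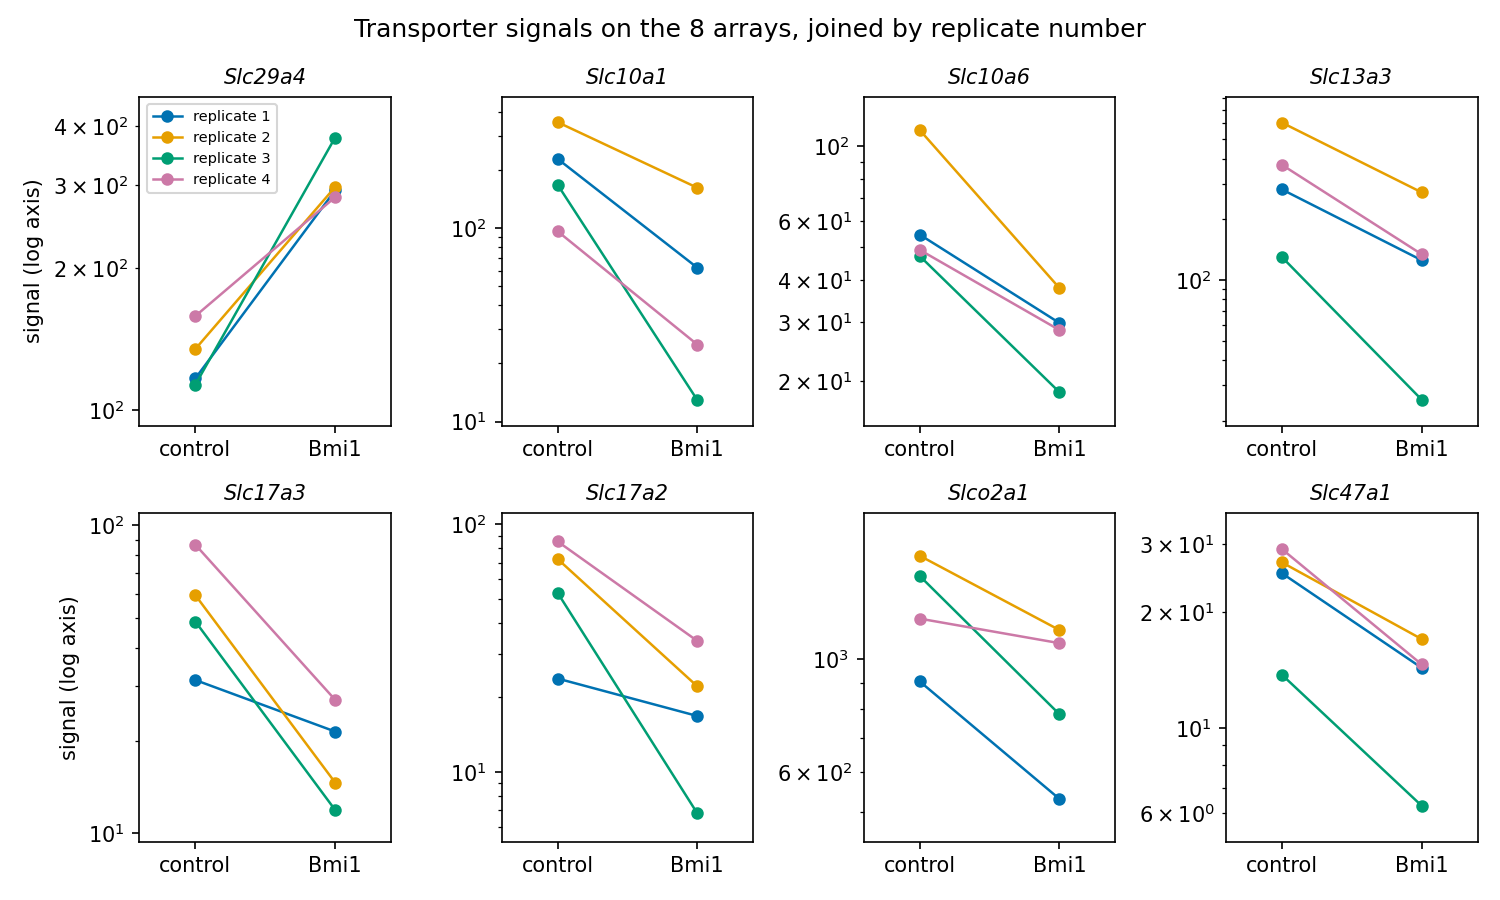
Signal on a log axis for 8 transporters, with control and Bmi1 arrays of the same replicate number joined by a line. Slc29a4 goes up in each of the 4 pairs, from 113 to 158 in control to 283 to 378 in Bmi1 arrays, and the other 7 genes go down in each pair.

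Among bile acid carriers, Slc10a1 encodes NTCP, the sodium-coupled carrier that takes conjugated bile acids into hepatocytes. Its probe set 1424898_at read 228, 353, 168 and 96.3 on control arrays 1 to 4. On Bmi1 arrays 1 to 4 it read 62.4, 162, 12.9 and 25.0. The groups overlap, since Bmi1 2 is above control 4, but within each pair the Bmi1 array was the lower. The means were 211 ± 109 and 65.5 ± 67.4, a log2 difference of -2.09, the lowest of the 24 tested members. Its SE was 0.688 without a block (limma adjusted p = 0.383) and 0.326 with it (0.0196).

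By pair, Slc10a1 differed by -1.90, -1.19, -3.44 and -1.83. Its second probe set differed by -1.78 (limma adjusted p = 0.0245 with the block, each probe set tested alone). The call in the paired model was lost without replicate 1, at 0.0596, and stayed between 0.0248 and 0.0472 without any other. Slc10a1 also differed between replicate sets, by -1.79 in replicates 3 and 4 against 1 and 2 (adjusted p = 0.0106). With that set as the block, its limma adjusted p was 0.0285, and Slc29a4 and Slc10a1 were the 2 members that passed in that model, against 1.81% of all genes. Within replicates 1 and 2 and within replicates 3 and 4, the difference was -1.55 and -2.64 for Slc10a1, -1.23 and -1.01 for Slc10a6, -1.23 and -1.88 for Slc13a3, and -1.22 and -1.70 for Slc17a3.

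Slc10a6 encodes SOAT, a carrier of sulfated steroids. It read 54.6, 112, 47.1 and 49.2 on control arrays and 29.7, 37.8, 18.5 and 28.3 on Bmi1 arrays. The groups did not overlap, although control 2 stands well above the other controls. The means were 65.7 ± 31.0 and 28.6 ± 7.92 (log2 difference -1.12, SE 0.334, limma adjusted p = 0.301, paired 0.0319). The paired call was lost without any 1 replicate: the p was 0.0664, 0.123, 0.122 and 0.0637 without replicate 1, 2, 3 and 4.

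The remaining Slc10 genes did not pass or lay under the filter. Slc10a3 read 77.6, 155, 189 and 141 on control arrays and 109, 135, 150 and 126 on Bmi1 arrays, which overlap throughout (log2 difference -0.12, limma adjusted p = 0.982, paired 0.745). Slc10a7 read 132 ± 0.564 and 127 ± 9.22 (-0.12, adjusted p = 0.956). Slc10a2, the ileal bile acid carrier, was above background on 1 control array only, at a mean of 3.32 ± 4.55 in control and 2.59 ± 2.77 in Bmi1 arrays. All 4 tested Slc10 genes had differences below 0. That of Slc10a3 stayed below 0 in 28 of 32 settings run, and one of its turns was to 0.0092 when arrays were centred on all probe sets.

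The Slco family was mostly dim, with 3 of its 15 members tested. Slco1b2, the rodent liver carrier for bile acids, bilirubin and drugs, lay under the filter. It read 13.7, 33.2, 11.9 and 5.04 on control arrays and 4.07, 9.99, 0.582 and 4.67 on Bmi1 arrays. Each Bmi1 array was below its paired control, by a mean of -1.2, but Bmi1 2 was above control 4. Slco1b2 was above background on 3 control arrays and 1 Bmi1 array. Tested without a filter, its limma adjusted p was 0.605, paired 0.196. These values are from 1449394_at, and the other 4 probe sets of Slco1b2 did not all go the same way. Lower in 4 of 4 pairs was 1452494_s_at (-0.78), while 1427825_at (0.40), 1427826_a_at (0.30) and 1452569_at (0.49), above background on 2, 0 and 1 of the 8 arrays, were each higher in 3 of 4.

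The other Slco1 genes of the same chromosome 6 cluster lay near background. Slco1a5 read 12.9, 27.5, 4.70 and 5.77 on control arrays, above background on 2 of them, and was not above background on any Bmi1 array. On the mean it was at least 1.52-fold lower there, a bound carried by controls 1 and 2. The groups overlap, since Bmi1 1 (6.11) is above controls 3 and 4. Tested without a filter, its limma adjusted p was 0.542, paired 0.214. Without control 2 that bound was 1.16. Slco1a4 read 7.05, 25.8, 1.2 and 1.96 on control arrays and 1.01 to 4.90 on Bmi1 arrays, and without control 2 its control mean was 3.39, under the background of every array. Slco1a1 and Slco1a6 read 7.55 ± 5.95 and 9.24 ± 7.29 in control against 4.0 ± 3.16 and 7.0 ± 5.19 in Bmi1 arrays, and Slco1c1, known from the blood-brain barrier, was at background on all 8. No Slco1 gene passed when tested without a filter. The bound sets the control mean against the background of the Bmi1 arrays.

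Slco2a1 encodes the prostaglandin carrier. It read 905, 1599, 1460 and 1203 on control arrays and 531, 1142, 779 and 1076 on Bmi1 arrays, and the groups overlap. All 4 of its probe sets were lower in 4 of 4 pairs, and 1 of the other 3, tested alone, passed in the paired limma model (-1.49, adjusted p = 0.0195). Its log2 difference was -0.65 (SE 0.253, limma adjusted p = 0.531), and 0.0504 with the block, just over the threshold. With its probe sets averaged, the paired p was 0.0394, and without replicate 4 it was 0.0343. Slco3a1 (-0.17) and Slco5a1 (-0.04) did not pass, and Slco4a1 under the filter read 8.06 ± 5.40 and 19.6 ± 6.74 (1.02, adjusted p = 0.639 without a filter, paired 0.257). These Slco4a1 values are from 1438160_x_at, which may cross-hybridise, and its other probe set, 1455803_at, differed by 0.08.

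Of the carriers for dicarboxylates and citrate, Slc13a3 encodes NaDC3, which takes up succinate and related acids. Its probe set 1438377_x_at, again one that may cross-hybridise, read 282, 604, 130 and 373 on control arrays and 125, 272, 25.5 and 134 on Bmi1 arrays. The spread between replicate numbers is wide and the groups overlap, yet each Bmi1 array was below its pair. The means were 347 ± 199 and 139 ± 101 (log2 difference -1.56). The SE was 0.679 without a block (limma adjusted p = 0.622) and 0.193 with it (0.0112). In the paired model the call held without any 1 replicate, at 0.0248 to 0.0332.

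The 4 probe sets of Slc13a3 gave unlike values. A second, 1416560_at, differed by -1.39 (limma adjusted p = 0.0183 with the block) and 1439385_x_at, higher in 2 pairs and lower in 2, by -0.40 (0.749). The fourth, 1439384_at, was at background on all 8 arrays (-0.34) and lay under the filter. With the probe sets averaged the paired p was 0.0553. Slc13a5, the citrate carrier, read 23.9 ± 7.66 and 25.7 ± 4.11 (0.04, adjusted p = 0.995). Slc13a1, Slc13a2 and Slc13a4, known mainly from kidney, gut or placenta, lay under the filter.

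The organic anion and urate carriers Slc17a1, Slc17a2 and Slc17a3 are neighbours on chromosome 13, and all 3 were lower in 4 of 4 pairs. Slc17a3 read 31.5, 59.3, 48.7 and 86.6 on control arrays and 21.4, 14.6, 11.9 and 27.1 on Bmi1 arrays, with no overlap. Its means were 56.5 ± 23.1 and 18.8 ± 6.86 (log2 difference -1.46, SE 0.331, limma adjusted p = 0.161, paired 0.0315). The paired call was lost without replicate 2, 3 or 4, at 0.110, 0.123 or 0.117, and held without replicate 1, at 0.0328. Of the 3 neighbours only Slc17a3 passed in the paired model.

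Slc17a2 read 23.8, 72.5, 53.0 and 85.4 on control arrays and 16.8, 22.1, 6.79 and 33.8 on Bmi1 arrays (log2 difference -1.49, limma adjusted p = 0.322, paired 0.0548). Here the groups overlap through control 1 and Bmi1 4. Slc17a1, under the filter, read 9.48, 13.4, 12.4 and 20.9 against 1.24, 8.39, 0.329 and 8.31, with no overlap (-1.30, limma adjusted p = 0.421 without a filter, paired 0.141). Slc17a5, the lysosomal sialic acid carrier, read 161, 270, 238 and 273 on control and 135, 168, 250 and 259 on Bmi1 arrays, which overlap (-0.30, adjusted p = 0.912). The vesicular glutamate carriers Slc17a6 and Slc17a7 and the nucleotide carrier Slc17a9 lay under the filter, the last above background on all 8 arrays.

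Slc22 is the broadest family, with 6 of 21 members tested and 0 called in either model. Slc22a23 read 195, 297, 302 and 401 on control arrays and 282, 244, 253 and 343 on Bmi1 arrays, which overlap (log2 difference -0.13, limma adjusted p = 0.973). The carnitine carrier Slc22a5 (114 ± 24.1 and 114 ± 18.7, -0.06) and the urate exchanger Slc22a12 (25.7 ± 4.08 and 18.0 ± 3.59, -0.51) did not pass either. Slc22a15 read 29.2, 27.9, 35.0 and 25.8 on control and 35.3, 43.3, 35.4 and 35.8 on Bmi1 arrays (0.24, limma adjusted p = 0.941, paired 0.595). Its second probe set, 1458933_at, went the other way, by -0.39, and was lower in 3 of 4 pairs. Slc22a17, a receptor for lipocalin 2, read 72.1, 78.2, 51.5 and 71.8 on control and 90.6, 86.6, 78.4 and 121 on Bmi1 arrays (0.36, adjusted p = 0.814, paired 0.303). For both genes the signals listed by array lie just apart between groups but overlap once arrays are centred. The imprinted Slc22a18 (0.32) also lay above 0. The direction of Slc22a23 turned to 0.0017 with centring on all probe sets.

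The other 15 Slc22 genes lay under the filter, among them the organic anion carriers of kidney Slc22a6 and Slc22a8, the liver carrier Slc22a7 and the organic cation carrier Slc22a2. Slc22a26 was at background on all Bmi1 arrays and on controls 1 and 3 (5.01 and 4.57), and above it on 2 of 4 control arrays. On the mean it was at least 1.36-fold lower than in control arrays (10.2 ± 6.32), or 1.16-fold without control 2. The groups did not overlap (limma adjusted p = 0.394 without a filter, paired 0.174). The rest were Slc22a4, Slc22a13, Slc22a14, Slc22a16, Slc22a19, Slc22a21, Slc22a22, Slc22a27, Slc22a29 and Slc22a30.

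Slc47a1 encodes MATE1, which extrudes organic cations into bile and urine. It read 25.2, 26.9, 13.7 and 29.1 on control arrays and 14.3, 17, 6.28 and 14.6 on Bmi1 arrays. It was lower in 4 of 4 pairs, with overlap through control 3 (log2 difference -0.79, SE 0.348, limma adjusted p = 0.625, paired 0.152). Of the ascorbate carriers, Slc23a2 read 23.6, 40.6, 34.8 and 39.4 on control and 31.0, 36.8, 49.6 and 42.7 on Bmi1 arrays, which overlap (0.12, adjusted p = 0.977). Slc23a1, the ascorbate carrier of liver and kidney, read 23.5 ± 14.7 and 13.9 ± 5.34 (-0.62, adjusted p = 0.890). The other members of the Slc23 family, Slc23a3 and Slc23a4, lay under the filter.

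**Figure D3:**
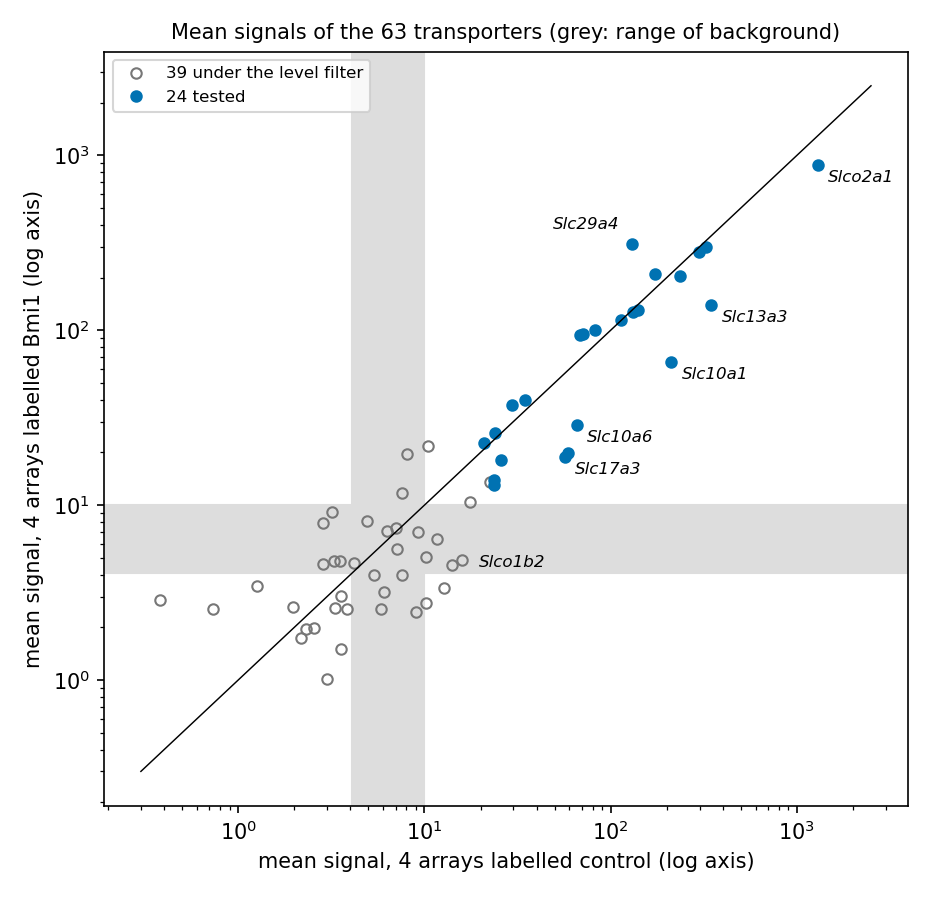
Mean signal of each of the 63 transporters in the 4 control arrays (x) and the 4 Bmi1 arrays (y), both on log axes, with the line of equality and the range of array background, 4.09 to 9.97, in grey. The 39 open circles lie under the filter, mostly in or near the grey band, and Slc29a4 lies above the line while Slc10a1, Slc10a6, Slc13a3 and Slc17a3 lie below it.

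The 39 transporters under the filter had signals of 0.100 to 38.7 on single arrays, with a median of 4.17. Of these genes 8 were above background on 0 arrays, 30 on 1 to 7 arrays and 1 on all 8. Without the filter 0 of them passed in limma, with or without the block, and 6 and 7 of 39 (15.4% and 17.9%) had an unadjusted p under 0.05, against 6.93% and 12.9% of all 18193 genes in those tests. On the signal the groups did not overlap for 3 of 39 (7.69%), with Slc17a1 and Slc22a26 lower and Slc22a4 higher. Slc22a4 was above background on 1 Bmi1 array only and overlapped after centring. After centring Slc17a1 and Slc22a26 stayed apart, and Slco4a1 lay apart in the higher direction. At the second probe sets of Slc22a26 and Slco4a1 the groups overlapped. The share over all genes under the filter was not counted. For these genes the signal over background limits what can be compared. Members named above without values, and Slco2b1, Slco4c1, Slco6b1, Slco6c1 and Slco6d1, are among them.

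Across the tested members, 16 of 24 differences lay below 0, against 54.3% of all tested genes. Their median was -0.13, against -0.03 over all genes. At least 2-fold lower were 5 of 24 (20.8%, against 2.47% of all genes), and 1 was at least 2-fold higher (against 1.48%). Lower in 4 of 4 pairs were 9 of 24 (37.5%, against 15.9%), and higher in 4 of 4 were 3 (against 11.4%). The groups did not overlap, after centring, for 1 member in the higher and 2 in the lower direction, against 2.42% and 2.91% of all genes, 5.33% in all. On the uncentred signal these were 3 and 2 members, against 3.02% and 1.8% of all genes.

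By pair the median of the 24 was -0.13, -0.38, -0.20 and -0.03 in pairs 1 to 4, and 13, 19, 16 and 13 of them were lower. Slc10a1 in pair 3 gave the lowest single value, -3.44. Centred on all probe sets, the median of all genes moved to 0.11 and that of the members to 0.0054, so both shifted together. The interaction of replicate set and group was under threshold for 0 of 24 members and for 0% of all genes in limma, and 0 members and 301 genes (2.76%) had an unadjusted p under 0.05. Between replicate sets, 24.3% of all genes and 2 of 24 members differed, Slc10a1 and Slc29a3 (-0.51, adjusted p = 0.0467), both lower in replicates 3 and 4.

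**Figure D4:**
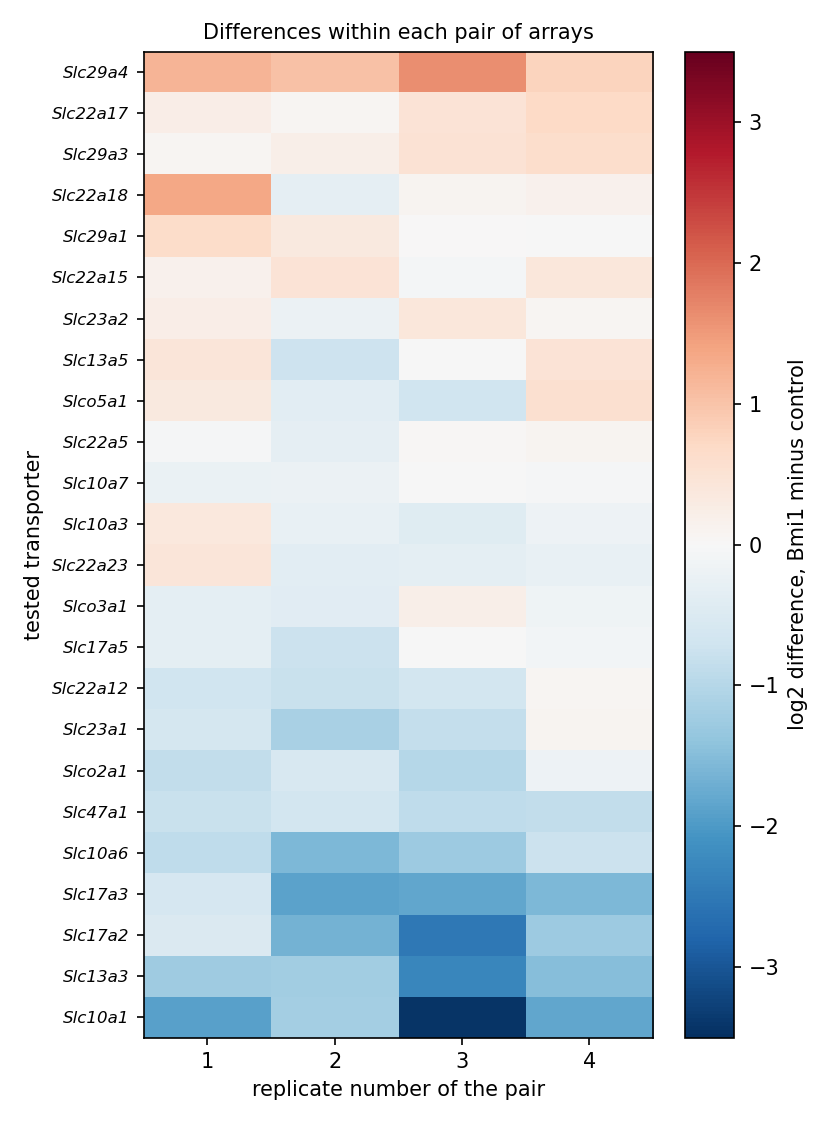
Log2 difference, Bmi1 minus control, in each of the 4 pairs (columns) for the 24 tested transporters (rows, in order of their mean difference), as a colour scale from blue (lower) to red (higher). The top row, Slc29a4, is red in each pair, the bottom rows are blue in each pair, and the deepest blue is Slc10a1 in pair 3, at -3.44.

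The tested genes whose profile over the 8 arrays was nearest to that of 3 carriers were listed by Pearson correlation. This is a description, since all points share the same 8 arrays and their group difference. For Slc29a4 they were Ina (0.980), Tcfl5 (0.970), St14 (0.968), Adgrb2 (0.963) and Igsf21 (0.956). For Slc10a1 they were Tmem33 (0.987), the plasma protein gene Itih4 (0.986), the carboxylesterase Ces2a (0.983), the cytochrome P450 Cyp3a44 (0.982) and Sri (0.980). For Slco1b2 they were Itih1 (0.983), the mitochondrial carrier Slc25a47 (0.977), Slc41a2 (0.976), Gpld1 (0.976) and the scaffold protein gene Pdzk1 (0.974). Only tested genes could be listed, so the 39 members under the filter could not appear. No list holds another of the 24 tested members. With tested members, Slc29a4 correlated at -0.836 (Slc17a3) to 0.578 (Slc22a17) and Slc10a1 at -0.748 (Slc29a4) to 0.907 (Slc10a6). Slco1b2 correlated with them at -0.774 (Slc29a1) to 0.946 (Slc10a6).

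Partner genes of these carriers were read from 5 lists. Over all tested genes, 54.3% lay below 0. Without a block 0.055% were called lower, and with it 1.96% were called lower and 1.36% higher. Of the ATP-driven export pumps and their partners, 12 of 16 were tested, 9 below and 3 above 0, with a median of -0.32. Abcc2, the canalicular pump for conjugated bilirubin, fell from 211 ± 56.3 to 58.4 ± 21.1 (log2 difference -1.88, limma adjusted p = 0.0406, paired 0.0125). With the block 4 more fell: the bile salt pump Abcb11 (-2.10, adjusted p = 0.0173), the phosphatidylcholine floppase Abcb4 (-1.38, 0.0125), Abcg2 (-0.61, 0.0347) and Pdzk1 (-1.56, 0.0285). The basolateral pumps Abcc3 (0.88, adjusted p = 0.0761 with the block) and Abcc4 (0.55, 0.173) lay above 0 and did not pass.

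Of bile acid synthesis and conjugation genes, 11 of 14 were tested. All 11 lay below 0, against 54.3% of all tested genes, with a median of -0.73. Without a block 0 passed, and with it 3 fell in limma: Scp2, which carries and cleaves sterol side chains (-0.73, adjusted p = 0.0162), the bile acid and fatty acid CoA ligase Slc27a2 (-1.60, 0.0225) and the amino acid conjugating enzyme Baat (-1.44, 0.0196). Of the bile acid sensors, 6 of 9 were tested, 3 on each side of 0, and Nr1h4, the bile acid receptor FXR, fell with the block (-1.38, 0.0310).

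Nucleoside salvage and breakdown genes were evenly split, with 8 of 16 tested genes on each side of 0 and a median of -0.02. With the block Ada, adenosine deaminase, rose (1.31, limma adjusted p = 0.0309), and urate oxidase Uox (-1.80, 0.0407) and the pyrimidine-degrading Dpyd (-1.41, 0.0314) fell. Of the carnitine, ascorbate and citrate genes, 9 of 11 lay below 0, against 54.3% of all tested genes, with a median of -0.07. Tmlhe, of carnitine synthesis (-1.52, 0.0313), and Rgn, of ascorbate synthesis (-2.18, 0.0249), fell with the block.

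Marker genes of several cell types moved with the same contrast, and their part in the transporter results was not tested. Over all tested genes, 54.3% lay below 0, 0.165% passed without a block and 3.33% passed with it. Summed hepatocyte marker signal was 21841 to 31869 in control and 17170 to 27984 in Bmi1 arrays (8 of 9 tested genes below 0, Cyp3a11 called with the block). Summed biliary markers were 2174 to 3301 and 4032 to 4351 (5 of 5 above 0, Epcam and Cdh1 called with the block in limma). Stellate and fibroblast markers summed to 1797 to 11488 and 998 to 4765 (8 of 8 below 0, Acta2 called with the block, Lrat at background). Neuronal markers summed to 69.9 to 89.9 and 204 to 379, and both tested genes, Ina and Crmp1, passed in both models. The other 4 of the 6 neuronal genes were under the filter, Tubb3 (0.44) and Snap25 (0.26) above 0 and Syp (-0.39) and Gap43 (-0.02) below, so the sum follows Ina and Crmp1.

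Markers of blood, vessel and serosal cells were dimmer. Macrophage markers summed to 242 to 684 in control and 169 to 501 in Bmi1 arrays, and mesothelial markers to 134 to 385 and 51.0 to 208, with Msln called lower with the block. Endothelial markers summed to 114 to 233 and 240 to 350, a rise that follows Egfl7 (126 to 249, called with the block). Of the 7 endothelial genes 3 lay above 0 and 4 below, Cdh5 (-0.53), Kdr (-0.51), Tek (-0.51) and Pecam1 (-0.13), the last 2 at background on all arrays. Erythroid markers summed to 28.3 to 70.4 and 48.3 to 91.7, which follows the receptor gene Epor (33.3 to 69). The globin gene Hba-a1 went from 15.5 to 4.75 and was lower in 4 of 4 pairs (-0.98), and Alas2 was at background.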

How the data were processed

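RNA from 4 control and 4 Bmi1 cultures was read on Affymetrix mouse arrays with 45101 probe sets. The deposited values are signal intensities on a linear scale. They have a common trimmed mean of 100 on each array, which was found from the values themselves. The sources used here do not name the software. Values were taken as log2(intensity + 3.78), so folds of dim genes are understated, and each array was centred on the median of the tested genes. A gene was read by its single-symbol probe set of highest mean, and the 10916 genes at or above the 40th percentile were tested with limma 3.58.1 in R 4.3.3 (intensity trend, two-sided, Benjamini-Hochberg adjusted p under 0.05). Members, gene lists and tests were chosen with earlier results of these data known.

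Deviations of same-numbered arrays from their group means correlated at 0.53, 0.49, 0.50 and 0.68. Each array correlated best with its own number, so the numbers were taken as pairs. For Bmi1 2 the margin was narrow, at 0.489 with control 2 and 0.476 with control 1. Unlike numbers correlated at 0.120 to 0.476 within a replicate set and at -0.634 to -0.184 across sets. How much of the pairing is the difference between sets was not tested. The model without the block is the main one, and paired values stand beside it where they change a call. Nothing says that the arrays came from separate animals beyond the 4 experiments of the series, and the number of arrays limits the precision. Background was the 95th percentile of 27 Bacillus control probe sets on each array.

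Values on every array are given for members called in either model, tested members with groups that do not overlap on the signal or after centring, Slc29a4, Slc10a1, Slco1b2 and the member of highest level in each family. Slc17a1 and Slc17a2, neighbours of Slc17a3, and Slco1a4 and Slco1a5 were added after their values were seen. From the partner lists, called genes are named, with Abcc3 and Abcc4 added after their values were seen. On simulated data for this contrast over 10916 genes, the model without a block recovered 32 of 100 genes changed by a log2 of 1 and 81 of 100 changed by 2, with 0 false calls. With the block it recovered 89 and 100, with 15 false calls. The simulated arrays were built from the spread and the replicate effects of the paired model. The gain with the block was therefore set in advance, and it cannot show which model is better for the real arrays. Other scalings, filters, pseudocounts, probe set rules, blocks and left-out arrays were tried. Probe sets with several symbols were left out.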

Additional observations from a re-analysis of the deposited data

Results flagged for a closer look

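In the 26 groups of 4 arrays examined for the named members, a single array stood apart from its group in 2, where about 1.3 would by chance at 1 in 20. For Slc29a4, Bmi1 3 was the highest of the Bmi1 arrays, and its gap to the next array was 0.850 of the group's range; without it the log2 difference was 1.09 and the limma adjusted p 0.110, and without replicate 3 the paired p was 0.0434. For Slc10a6, control 2 was the highest of the control arrays, at 0.885 of the range; without replicate 2 the log2 difference was -0.98 and the paired limma adjusted p 0.123.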

How the results depend on the processing

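Over the settings run, Slc29a4 stayed above 0 in 32 of 32, at 1.01 to 1.30, and passed limma in 18, among them every setting with the replicate block. It did not pass without a block with centring on all probe sets (adjusted p = 0.137), no filter (0.0508), the 60th percentile filter (0.0961), averaged probe sets (0.0871), every probe set tested (0.0715), or within replicates 1 and 2 (0.312) or 3 and 4 (0.241). The lower direction of Slc10a1, Slc10a6, Slc13a3 and Slc17a3 held in every setting run. Directions that turned were those of Slc10a3 within replicates 1 and 2 (0.053), with centring on all probe sets with or without the block (0.0092) and without control 3 (0.024, in a range of -0.35 to 0.024 without 1 array), of Slc22a23 within replicates 1 and 2 (0.031) and with centring on all probe sets with or without the block (0.0017), and of Slc23a2 without control 1 (-0.0015, in a range to 0.21 without 1 array). The cause was not tested.

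Without a block 12 genes were called higher and 6 lower. With the replicate block these were 149 and 214, and with replicates 1-2 against 3-4 as the block 95 and 103. With the replicate block and no centring they were 222 and 187, with centring on all probe sets 280 and 197, with quantile normalisation 161 and 190, with no filter 128 and 151, with averaged probe sets 147 and 165, and with every probe set 201 and 230; without replicate 1, 2, 3 or 4 they were 83, 64, 31 and 66 higher and 104, 76, 63 and 141 lower. Without a block they were 20 and 8 with no centring, 6 and 7 with centring on all probe sets, 17 and 12 with quantile normalisation, 20 and 10 with the pseudocount at the median of all values, 9 and 4 with no filter, 9 and 5 with averaged probe sets, 6 and 3 with every probe set, 24 and 13 with array weights, and 0 to 13 and 0 to 7 without 1 array. Called genes were 0 and 0 in limma within replicates 1 and 2 (824 at an unadjusted p under 0.05), within replicates 3 and 4 (1012) and with the 60th percentile filter (442).

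Members called higher without a block were 0 in each setting above in which Slc29a4 did not pass, and 0 to 1 without 1 array; with the block and every probe set they were 2 probe sets. Members called lower were 4 with the replicate block, also with no centring, 1 with the set block, 5 with the block and centring on all probe sets, quantile normalisation or averaged probe sets, 3 with no filter, 7 probe sets with every probe set and 2 to 3 without 1 replicate. The median of the members was between -0.23 and 0.0054. The replicate block changed no call of a transporter given on every array other than those of Slc10a1, Slc10a6, Slc13a3 and Slc17a3.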
